A study of Drosophila mojavensis with 14 samples.

Results

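Adh1 and Adh2 are the paralogous alcohol dehydrogenase genes of the cactus fly Drosophila mojavensis. They were found by their names among the transcripts of the array, after the species prefix and the ending of the name were removed. Both were present, so these results describe 2 of the 14519 transcripts measured. Alcohol dehydrogenase in Drosophila is a short-chain dehydrogenase that oxidises alcohols to aldehydes and ketones with NAD+, and it lets larvae and adults use and detoxify the alcohols of fermenting plant tissue. Drosophila mojavensis breeds in rotting cactus, and its lineage carries a duplication of the gene. Adh1 is known as the larval and ovarian form, and Adh2 as the form of late larvae and adults.

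RNA was measured in the lower reproductive tract of females of 1 Drosophila mojavensis isofemale line from the Anza Borrego Desert, on 1-colour NimbleGen expression arrays labelled with Cy3. One group was virgin. In the other groups each female had mated with a male of her own line (conspecific), or with a male of 1 isofemale line of the sister species Drosophila arizonae from Guaymas in Sonora (heterospecific), and dissection followed copulation by 15 min, 2 h or 6 h. All flies, the virgins included, were kept apart by sex and aged 10 to 12 days, each mated female had met 2 males in a vial, and every sample pooled 20 to 25 tracts. Each of the 7 groups was sampled as 2 biological replicates, 14 arrays in all, and both sexes came from a single line per species, which limits how far the values reach beyond those lines. Which transcripts respond to mating, and whether the species of the male matters, is what the groups compare. In RNA from whole tracts, fewer cells of a type and less RNA per cell cannot be told apart.

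Arrays differed in brightness and in probe slope. The raw upper quartile of probe intensity ranged from 943 to 2912 with a median of 2367, and the 4 lowest arrays were virgin replicate 2, conspecific 15 min replicate 2, conspecific 2 h replicate 1 and conspecific 6 h replicate 1. The slope of probe value on listed probe position, taken over all transcripts, ranged from 0.641 to 1.68 log2 units per kb, with positions taken as bases. Of 14 marker symbols of tract, fat body and ovary looked for, 0 were among the array's names, so the labelled tissue could not be checked by them. Of 4 transcripts named after male accessory gland proteins, 0 were above background on both virgin arrays, 1 in each conspecific group, and 2, 3 and 3 in the heterospecific groups at 15 min, 2 h and 6 h. Of 25 named after testis genes, 9 were above it in virgins and 10 to 12 in the mated groups. The part of male RNA in the levels below was not tested.

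Both genes were above the background limit on all 14 arrays. That limit was set per array from the dim side of its distribution, at 2 SDs (of the values under the mode) above the mode. Levels are given on the log2 scale after background correction and quantile normalization. Adh1 lay 1.72 to 2.62 log2 units above the limit and Adh2 2.74 to 3.36. Each gene had 4 probes, and the median raw intensity of these ranged from 556.5 to 1662 across arrays for Adh1 and from 909.5 to 2783 for Adh2. Probes bind with different strength, so the level of one gene cannot be set against that of the other.

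Adh1 varied less between replicates than a typical expressed transcript, and more than most across groups. Its log2 level was 9.78 and 9.84 on the virgin arrays, replicates 1 and 2. On the conspecific arrays it was 10.16 and 10.28 at 15 min, then 10.00 and 9.41 at 2 h, then 9.62 and 9.61 at 6 h. On the heterospecific arrays it was 9.53 and 10.08 at 15 min, then 9.42 and 9.66 at 2 h, then 9.18 and 9.26 at 6 h. Both conspecific arrays at 15 min stood above every other array, and both heterospecific arrays at 6 h stood below every other. The replicates lay far apart in conspecific 2 h and heterospecific 15 min, where the SD was 0.41 and 0.39, against 0.043 in virgins and 0.0072 in conspecific 6 h (n = 2 each). The conspecific 6 h arrays were less alike by single probe. They had 9.52 and 9.50 at listed position 159, 9.72 and 10.21 at 475, 10.17 and 9.80 at 536, and 8.69 and 9.07 at 610. The mean of the probes gave 9.53 and 9.64.

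From high to low, the group means of Adh1 ran conspecific 15 min (10.22), virgin (9.81), heterospecific 15 min (9.80), conspecific 2 h (9.70), conspecific 6 h (9.61), heterospecific 2 h (9.54) and heterospecific 6 h (9.22). The arrays of neighbouring groups overlapped in the middle 4 of the 6 steps. At the top step, of 0.41, and the bottom step, of 0.32, they stood apart. Of all transcripts, 24.1% and 39.1% had arrays that did not overlap between the groups of these steps. The whole range of group means was 1.00 on the log2 scale, or 2.00-fold, and 78.4% of the 9017 transcripts above background in at least 1 group had a narrower range. The median range of those transcripts was 0.69, and their median replicate SD was 0.288 against 0.229 for Adh1.

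In the quantile-normalized values, Adh2 was among the steadier transcripts. Its log2 level was 10.52 and 10.64 in virgins. On the conspecific arrays it was 10.87 and 10.74 at 15 min, then 10.56 and 10.27 at 2 h, then 10.77 on both at 6 h. On the heterospecific arrays it was 10.74 and 10.58 at 15 min, then 10.35 and 10.50 at 2 h, then 10.81 and 10.60 at 6 h. The arrays taken at 2 h were low in both matings, and those at 15 min and 6 h were close to each other. The virgin arrays lay within the range of the mated ones.

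The order of the Adh2 group means was conspecific 15 min (10.81), conspecific 6 h (10.77), heterospecific 6 h (10.70), heterospecific 15 min (10.66), virgin (10.58), heterospecific 2 h (10.43) and conspecific 2 h (10.42). Neighbouring groups overlapped at 5 of the 6 steps, and the exception was the step of 0.15 from virgin to heterospecific 2 h. Between those 2 groups, 55.1% of all transcripts had arrays that did not overlap. The group means spanned 0.39, or 1.31-fold, and only 12.2% of the transcripts above background spanned less. The replicate SD of Adh2, pooled over groups, was 0.121, lower than in all but 4.03% of those transcripts.

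Over all 21 pairs of groups, the 2 arrays of one group stood clear of the 2 of the other in 13 pairs for Adh1 and in 13 for Adh2, or 61.9% of pairs each. Over all transcripts the share of such pairs was 40.3%.

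**Figure D1:**
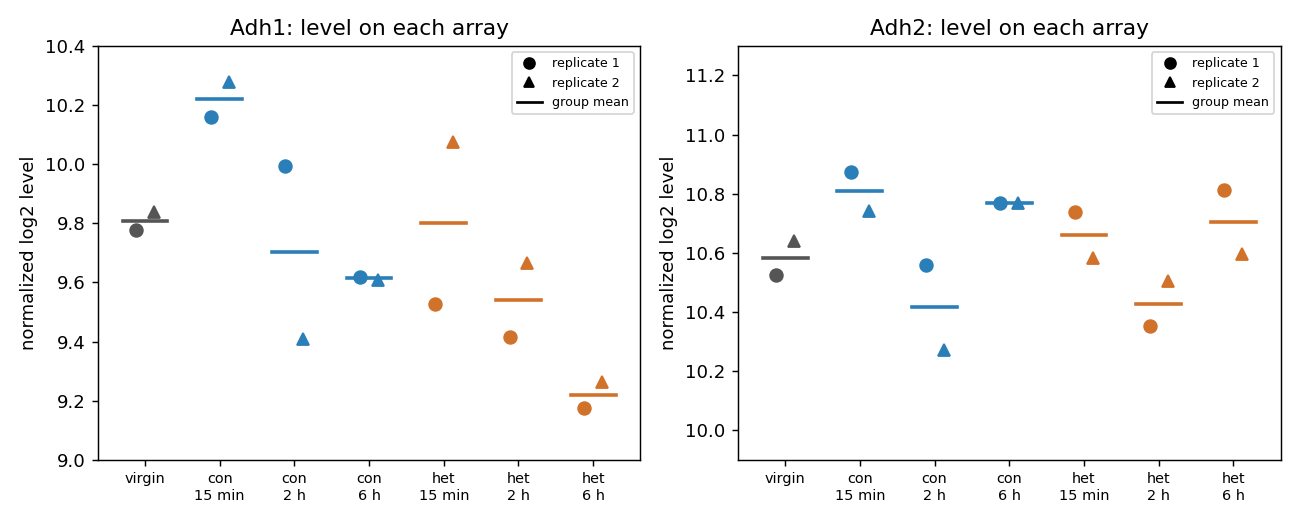
Normalized log2 level of Adh1 (left) and Adh2 (right) on each of the 14 arrays, by group (con, conspecific; het, heterospecific), with circles for replicate 1, triangles for replicate 2 and bars for group means. Adh1 runs from 10.28 (conspecific 15 min) to 9.18 (heterospecific 6 h), while Adh2 stays between 10.27 and 10.87; the axes span equal ranges but start at different levels.

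Neither gene passed limma's moderated test against virgin at any time after either mating. A call needed a p under 0.05 after Benjamini-Hochberg adjustment across the 14519 transcripts. In the 6 comparisons with virgin, Adh1 and Adh2 each passed in 0, and at an unadjusted p under 0.05 Adh1 passed in 1 and Adh2 in 0. These comparisons share the same 2 virgin arrays. Of all transcripts, 0.062%, 0.0344% and 0.0276% were called in the conspecific groups at 15 min, 2 h and 6 h, and 0.062%, 0.0689% and 0.165% in the heterospecific groups. At the unadjusted threshold these shares were 3.56%, 3.6% and 8.04%, then 2.8%, 15.1% and 17.8%.

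The difference of Adh1 from virgin was 0.41 (SE 0.22, adjusted p = 1) at 15 min after conspecific mating, where both arrays were above both virgin ones, as was the case in one direction or the other for 24.1% of all transcripts. It was -0.11 at 2 h (adjusted p = 0.999) and -0.19 at 6 h (adjusted p = 0.969). After heterospecific mating it was -0.0052 at 15 min, -0.27 at 2 h and -0.59 at 6 h. Arrays overlapped with virgin at 15 min (26.1% of all transcripts did not) and stood below it at 2 h (55.1% did not overlap). The last, 1.50-fold lower, had an unadjusted limma p of 0.0242 and an adjusted p of 0.231. Both arrays lay below both virgin arrays there, but 56.7% of all transcripts had arrays that did not overlap in that comparison, and 17.8% had an unadjusted p under 0.05. Its direction was the same in all 31 alternatives run, but several of these cannot change the estimate. Among them are the deposited table, the eBayes settings and leaving out an array of another group. It shrank to -0.16 with median scaling and to -0.31 with the day of the date in each array's file header as a block. By that date, both virgin arrays were of day 2 and both heterospecific 6 h arrays of day 1. The day thus cannot be told apart from the groups in this comparison.

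The 6 differences of Adh2 from virgin lay between -0.17 and 0.23 on the log2 scale. The largest was 0.23 (SE 0.16, limma adjusted p = 1) at 15 min after conspecific mating. The Adh2 arrays stood above virgin at conspecific 15 min and 6 h (27.7% of all transcripts did not overlap at 6 h) and below it at heterospecific 2 h, and overlapped with it in the other 3 comparisons. Median scaling moved several of them upward, to 0.52 at 2 h and 0.81 at 6 h after heterospecific mating, with adjusted p no lower than 0.304 in any alternative at 6 h. In these heterospecific comparisons at 2 h and 6 h, the median difference of all transcripts with that setting was 0.043 and 0.042. It reached 0.162 in the conspecific comparison at 2 h.

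The intervals show what size of change the arrays leave room for. Taken over the 6 comparisons, the 95% intervals of Adh2, not adjusted for their number, reached from 1.43-fold lower to 1.49-fold higher than virgin. Those of Adh1 were wider and reached from 2.12-fold lower to 1.87-fold higher. The 9 transcripts that passed at 15 min after conspecific mating differed by a median of 2.45 on the log2 scale, and by at least 0.91. The 24 that passed at 6 h after heterospecific mating differed by a median of 1.89, and by at least 1.01. Passing the test favours large differences, so these sizes follow in part from the selection. The Adh1 interval at 6 h after heterospecific mating reached -1.08. Over all 6 mated groups together, the difference from virgin was -0.12 for Adh1 (SE 0.17, adjusted p = 0.834) and 0.050 for Adh2 (SE 0.12, adjusted p = 0.915), where 0.0344% of transcripts were called and 7.35% passed unadjusted. The 95% interval on the log2 scale was -0.50 to 0.25 for Adh1 and -0.22 to 0.32 for Adh2.

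The mean level of Adh1 was lower after heterospecific than after conspecific mating at each of the 3 times in the quantile-normalized values, but in no case past the threshold, and the sizes depended on scaling and single arrays. The differences were -0.42 at 15 min, -0.16 at 2 h and -0.39 at 6 h (SE 0.22 each, limma adjusted p of 0.982, 0.833 and 0.529). Of all transcripts, 0.0551%, 0.0207% and 0.00689% were called in these comparisons, and 3.29%, 7.82% and 9.84% had an unadjusted p under 0.05. The arrays of the 2 mating types did not overlap at 15 min and 6 h, which held for 28% and 48% of all transcripts. At 2 h they overlapped. With median scaling the difference was -0.25 at 15 min, 0.096 at 2 h and -0.00036 at 6 h. At 15 min it was -0.14 without heterospecific replicate 1 and -0.69 without heterospecific replicate 2. At 2 h, leaving out 1 array moved it between -0.45 and 0.13. Averaged over the times the difference was -0.32 (SE 0.13), with an unadjusted limma p of 0.0297 and an adjusted p of 0.222. That is 1.25-fold lower, where 0.186% of transcripts were called and 19.8% had an unadjusted p under 0.05. With the day of the header date as a block it was -0.14, and with median scaling -0.053.

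For Adh2 the differences between mating types were -0.15 at 15 min, 0.012 at 2 h and -0.064 at 6 h, and -0.066 over the 3 times (SE 0.091, limma adjusted p = 0.684). The 95% interval of the last ran from 1.20-fold lower to 1.10-fold higher after heterospecific mating. The sign of these small differences turned with the scaling (0.30 over the 3 times with median scaling), so no direction is given for Adh2.

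Time after copulation gave the lowest adjusted p of Adh1. Over both matings the mean level was 10.01 at 15 min, 9.62 at 2 h and 9.42 at 6 h. The difference between 6 h and 15 min was -0.59 (SE 0.16, 95% interval -0.94 to -0.24), or 1.51-fold lower, with an unadjusted limma p of 0.00342 and an adjusted p of 0.0824. This comparison called 2.27% of all transcripts, with 1.28% of all called as lower at 6 h (17.5% passed unadjusted), and the highest unadjusted p among the called was 0.00112. Adh1 ranked 600 of 14519 by p and was outside that set. Heterospecific 15 min replicate 1, at 9.53, fell among the 6 h arrays, so the 4 early and 4 late arrays overlapped.

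Within mating types the difference was -0.60 (conspecific) and -0.58 (heterospecific), with unadjusted limma p-values of 0.0212 and 0.0252. Neither passed after adjustment (0.282 and 0.439). Of all transcripts, 0.11% and 0.0276% passed after adjustment and 12.8% and 9.81% before it. The difference between the matings in this change was 0.022 (95% interval -0.68 to 0.72, adjusted p = 0.995). Adjusted p-values of the change over both matings ran from 0.0489 to 0.536 over 31 alternatives, and the 1 alternative that passed left out the Adh1 probe at position 475. Without any 1 of the 14 arrays the adjusted p stayed between 0.0515 and 0.265. From 15 min to 2 h the difference was -0.39 (adjusted p = 0.473) and from 2 h to 6 h -0.20 (adjusted p = 0.995). Both turned on the conspecific 2 h arrays, which lay far apart. Without replicate 1 they were -0.54 and -0.057, and without replicate 2 they were -0.24 and -0.35.

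The mean level of Adh2 was 10.73 at 15 min, 10.42 at 2 h and 10.74 at 6 h over both matings. The difference of 2 h from 15 min was -0.31 (SE 0.11), with an unadjusted limma p of 0.0183 and an adjusted p of 0.410. That of 6 h from 2 h was 0.31 (SE 0.11), with an unadjusted limma p of 0.0177 and an adjusted p of 0.883. All 4 arrays at 2 h lay below the 4 at 15 min and below the 4 at 6 h. Of all transcripts, 4.54% and 3.46% had arrays that did not overlap in these comparisons, in either direction, 0.0482% and 0.00689% were called, and 9.42% and 5.24% passed unadjusted. Between 6 h and 15 min the difference of Adh2 was 0.0022 with an unadjusted 95% interval of -0.25 to 0.25, or 1.19-fold either way. That interval holds for this normalization only. With median scaling the difference was 0.11 with a wider SE of 0.27, and without the probe at position 185 it was -0.14.

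Over the 14 comparisons of the written design, limma called 0 for Adh1 and 0 for Adh2, with 4 and 2 at an unadjusted p under 0.05. The share of all transcripts that passed unadjusted ran from 2.8% to 19.8% over these 14. In 9 further comparisons outside that design it again called 0 for each gene, with 3 and 2 at an unadjusted p under 0.05. Of all transcripts, 0% to 0.11% were called in these 9. The unadjusted share was computed only for 6 h against 15 min within conspecific and heterospecific mating (12.8% and 9.81%). All these comparisons share arrays, so the counts are not of separate results. The moderated F test of any difference among the 7 groups gave an F of 3.70 for Adh1 (limma adjusted p = 0.381) and 1.94 for Adh2 (limma adjusted p = 0.564). Unadjusted, these p-values were 0.0309 and 0.165. The test called 0.186% of transcripts, and 11.6% passed unadjusted.

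**Figure D2:**
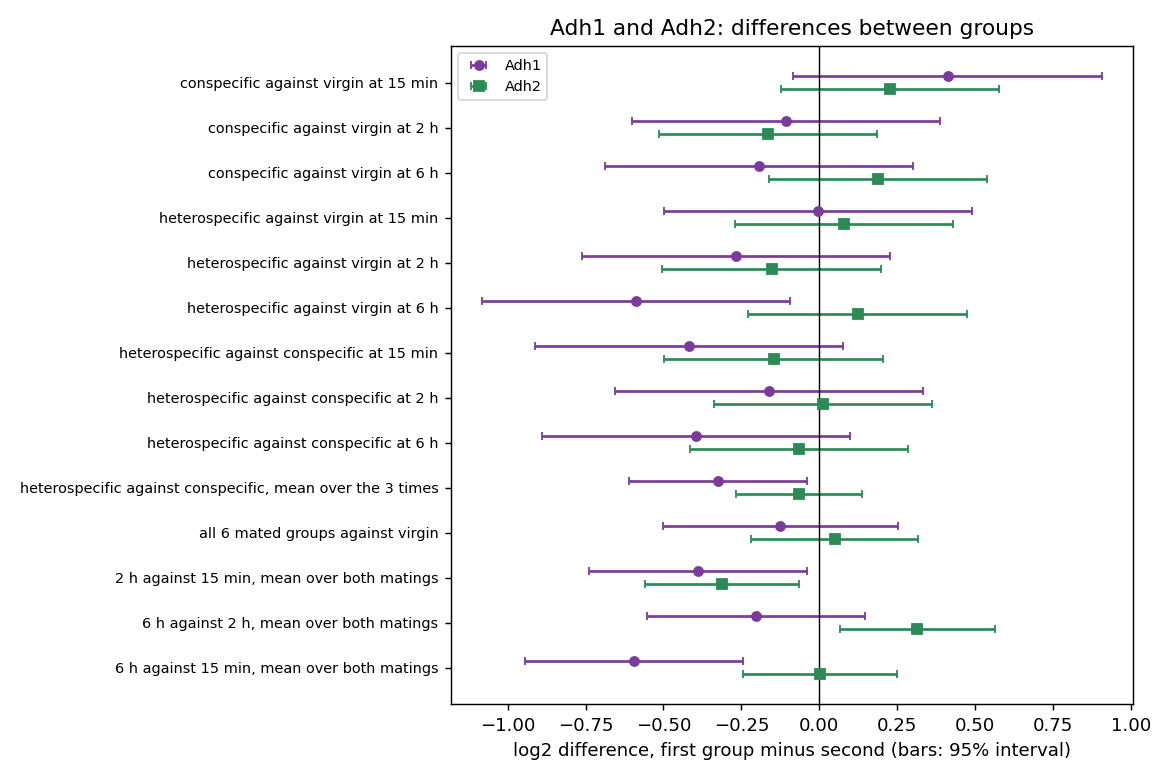
Log2 difference of Adh1 (circles) and Adh2 (squares) in each of 14 comparisons, first group minus second, with 95% intervals from the limma fit, not adjusted for their number. The Adh1 interval for 6 h against 15 min (-0.94 to -0.24) lies wholly below 0, and that of Adh2 for the same comparison (-0.25 to 0.25) is centred on 0.

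Whether the paralogues moved unequally was tested on the difference of their log2 levels on the same array, which compares changes and not levels. Adh1 minus Adh2 was -0.71 and -0.46 on the conspecific 15 min arrays and -1.21 and -0.51 on the heterospecific ones. At 6 h it was -1.15 and -1.16 on the conspecific arrays and -1.64 and -1.33 on the heterospecific arrays. In virgins it was -0.75 and -0.80. The 6 h arrays were lower than the rest except for heterospecific 15 min replicate 1.

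From 15 min to 6 h Adh1 changed by -0.60 log2 units relative to Adh2. An exact permutation test within each mating type, 2-sided over 36 arrangements of 8 arrays, gave p = 0.0556, the smallest that this design allows (adjusted p = 0.125 over 3 tests). Heterospecific against conspecific mating gave -0.26 (exact permutation p = 0.0833 over 216 arrangements within times, adjusted p = 0.125). All mated arrays against virgin gave -0.17 (exact permutation p = 0.495 over 91 arrangements, adjusted p = 0.495). None passed the threshold.

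Single probes of Adh1 did not report the same size of change. The probes are listed at positions 159, 475, 536 and 610. The files do not say from which end these count, or in what unit; they were taken as bases from the start of the transcript, and the slope per kb rests on that. Between 15 min and 6 h over both matings they differed by -0.19, -0.38, -0.97 and -0.81 in that order. All 4 were lower at 6 h, but the probe at the lowest position differed least and the 2 with the highest positions differed most. Without the probe at 536 the difference of the gene was -0.42, without that at 610 it was -0.43, and without that at 159 it was -0.76. The probe at 536 had the widest range, from 10.94 on conspecific 15 min replicate 2 to 8.86 on heterospecific 6 h replicate 1. The probe at 159 ranged from 9.23 to 9.83 over all 14 arrays. Against virgin at 6 h after heterospecific mating, the 4 probes lay between -1.39 and -0.19.

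Adh2 had probes at 163, 185, 479 and 610. Between 15 min and 6 h they differed by 0.11, 0.22, -0.20 and -0.16, so the near-zero change of the gene was the middle of probes that went opposite ways by position. Averaged over both matings, the lower values at 2 h had the same direction in every Adh2 probe. In that average all 4 probes were lower at 2 h than at 15 min, by log2 differences from -0.51 to -0.041. All 4 were higher at 6 h than at 2 h, by 0.15 to 0.47. After heterospecific mating alone the probe at 163 went the other way. It differed by 0.11 at 2 h from 15 min and by -0.049 at 6 h from 2 h.

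The likeness of probes over the 14 arrays differed with both gene and listed position. Within Adh2 the probes at 479 and 610 had a Pearson r of 0.87 with each other and the probes at 163 and 185 one of 0.57. Between these pairs r lay between -0.07 and 0.26. Within Adh1 the 3 probes at higher positions had r of 0.71 to 0.80 among themselves and of 0.33 to 0.54 with the probe at 159. Between genes, the Adh1 probes at 475, 536 and 610 had r of 0.50, 0.45 and 0.70 with the Adh2 probe at 479. With the Adh2 probe at 610 they had r of 0.38, 0.34 and 0.58. The highest of these 6 pairs (0.698) nearly reached the lowest pair of such probes within a gene (0.705), so the 2 kinds of pair were not clearly apart. With the Adh2 probes at 163 and 185, the Adh1 probes at 475, 536 and 610 had r from -0.30 to 0.054. The Adh1 probe at 159 had r of 0.48 and 0.22 with those, and of -0.035 and -0.10 with the Adh2 probes at 479 and 610. These values describe 14 arrays that share groups and labelling and carry no test. Probe sequences were not used here, so whether a probe of one paralogue also bound RNA of the other was not tested.

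**Figure D3:**
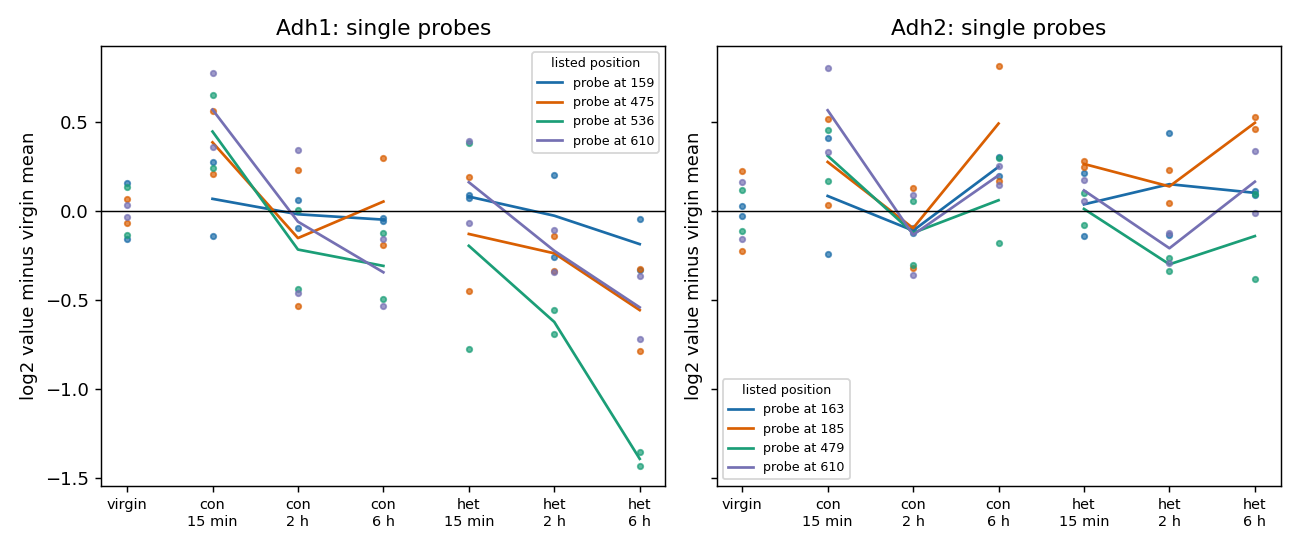
Normalized log2 value of each of the 4 Adh1 probes (left) and 4 Adh2 probes (right), minus the probe's mean in virgins, by group; points are arrays, lines join group means within a mating type, and colours give the listed position. The Adh1 probes spread apart by 6 h after heterospecific mating, from -0.19 (position 159) to -1.39 (position 536).

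The level of Adh1 moved with the probe slope of the arrays. Arrays at 15 min had slopes of 1.03 to 1.68 log2 units per kb, those at 6 h of 0.641 to 0.868, those at 2 h of 0.706 to 1.50, and the virgin arrays 0.976 and 1.26. Arrays at 15 min were thus all steeper than arrays at 6 h. Over 14 arrays Adh1 and the slope had a Pearson r of 0.761 (permutation p = 0.00115, adjusted 0.0069 over 6 relations) and a Spearman rho of 0.754 (permutation p = 0.00269, adjusted 0.0161). These permutations shuffle all arrays and ignore the groups, although both measures differed with time, so the p-values do not separate the slope from time. Leaving out the 2 arrays with the most extreme slopes (farthest from the median) gave 0.638. The 8 arrays with a header date on day 2 gave 0.765, and the 6 of day 1 gave 0.246. Within groups, Adh1 was higher on the steeper array in 4 of 7. With the slope as a covariate, an alternative added after the data were seen, the difference between 6 h and 15 min was -0.41 (limma adjusted p = 0.513). The part of the slope in this difference was not tested further.

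Adh2 had an r of 0.232 with the slope (permutation p = 0.429, adjusted 0.429; rho 0.178). The difference of Adh1 and Adh2 had an r of 0.64 with it (permutation p = 0.014, adjusted 0.042; rho 0.684), which was 0.442 without the 2 farthest arrays, 0.752 on day 2 and -0.020 on day 1. Raw brightness had an r of -0.449 with Adh1 (permutation p = 0.109, adjusted 0.217) and of -0.272 with Adh2 (permutation p = 0.347, adjusted 0.429). The paralogues themselves had an r of 0.257 (permutation p = 0.376, adjusted 0.429; rho 0.147), and -0.036 without the 2 arrays farthest from the median of Adh1. It was 0.642 on day 2 and -0.177 on day 1.

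**Figure D4:**
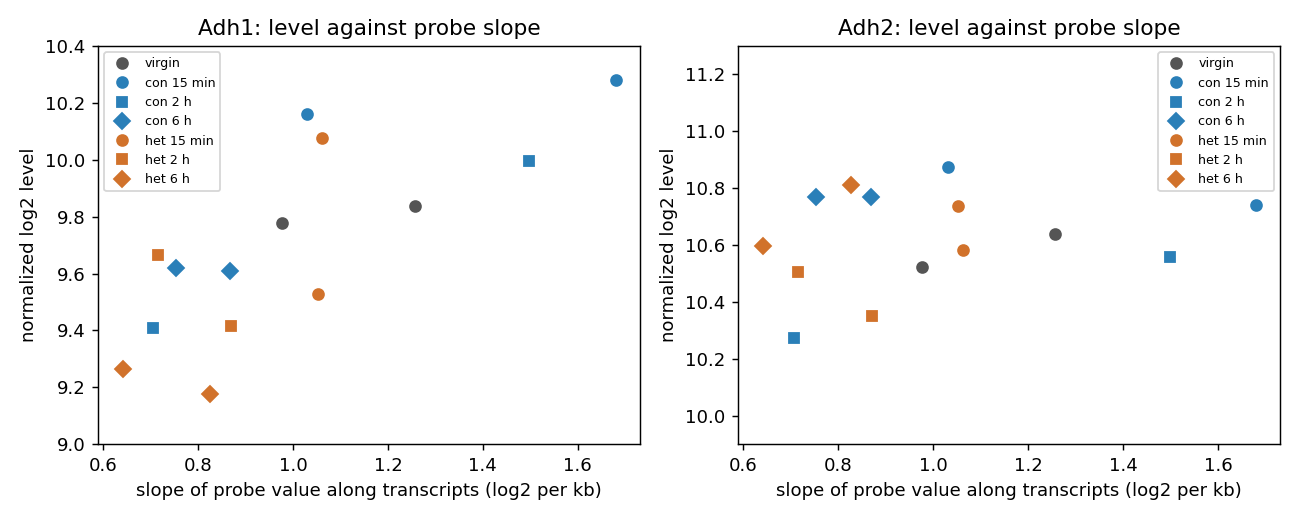
Normalized log2 level of Adh1 (left) and Adh2 (right) against the slope of probe value along all transcripts of the same array (log2 per kb), 1 point per array, colour and shape giving the group. Adh1 is low on the flat 6 h arrays (slopes of 0.641 to 0.868) and high on the steepest array (1.68), with an r of 0.761, against 0.232 for Adh2.

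The dates in the file headers fell on 2 days, which were not balanced over groups. Which step of the work these dates belong to was not checked. Day 1 held all 4 heterospecific arrays of 2 h and 6 h. It also held replicate 1 of heterospecific 15 min and replicate 2 of conspecific 6 h. The other 8 arrays were of day 2. Heterospecific 2 h and 6 h against virgin, and heterospecific against conspecific at 2 h, thus compare arrays of different days only. A day block there rests on heterospecific 15 min and conspecific 6 h, the groups with arrays on both days. With the day as a block the difference of Adh1 between 6 h and 15 min was -0.45 (limma adjusted p = 0.266). Within day 1 the heterospecific arrays at 6 h differed from the 1 at 15 min by -0.31 (adjusted p = 0.331), and within day 2 the 1 conspecific array at 6 h differed from the 2 at 15 min by -0.60 (adjusted p = 0.594). Each of these has an arm of 1 array and another mating type, so they do not separate the day from the groups. Within day 1 the heterospecific arrays at 2 h differed from the 1 at 15 min by 0.012 for Adh1, against -0.26 with both arrays at 15 min. Within day 1 the heterospecific arrays at 6 h differed from the 1 conspecific array by -0.39 for Adh1 and -0.065 for Adh2. Adh2 at 6 h differed from 2 h by 0.28 after heterospecific mating, all of day 1, and by 0.35 after conspecific mating with the 1 array of day 2.

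Of 30 symbols listed for alcohol and aldehyde metabolism, related redox enzymes and stress proteins, 3 were on the array by symbol, Adh1, Adh2 and Xdh. Xdh, the gene of xanthine dehydrogenase in purine breakdown, fell by 1.58 on the log2 scale between 15 min and 6 h over both matings (SE 0.27, limma adjusted p = 0.0214), the 1 call in its 14 comparisons. Its 4 arrays at 6 h lay below the 4 at 15 min, as 9.44% of all transcripts had arrays that did not overlap there. Its call was lost without conspecific 15 min replicate 2, conspecific 6 h replicate 2, either heterospecific 15 min array or heterospecific 6 h replicate 2 (adjusted p of 0.055 to 0.122). It was also lost with median scaling (0.082), the day as a block (0.0665) and the probe slope as a covariate (0.0654).

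Among the other 9016 transcripts above background in at least 1 group, those most like Adh1 over the 14 arrays were GI15542 (Pearson r 0.887) and GI18695 (0.880), whose genes are not named by the files. The most alike named by symbol were per, the circadian clock gene period (0.778, rank 124), and Tes134 (0.712, rank 345). The level of per was near the background limit, with group means from 7.53 to 8.03. It was below the limit on both conspecific 6 h arrays. GI15542 ran from 9.72 in conspecific 15 min to 8.25 in heterospecific 6 h, the same end groups as Adh1. Adh2 ranked 2976 in likeness to Adh1. For Adh2 the most alike were GI24288 (0.761) and GI19320 (0.749), and by symbol Tes14 (0.464, rank 188) and Tes39 (0.278, rank 1043). Adh1 ranked 1205 in likeness to Adh2. GI19320 lay near the background limit (7.44 to 7.73 over arrays), with group means from 7.15 to 7.65. Both of its arrays were above the limit in conspecific 15 min alone, where its mean was highest. GI24288 had its highest mean, 12.81, at conspecific 15 min and its lowest, 11.68, at heterospecific 2 h. These likenesses were picked from 9016 transcripts, over arrays that share the slope and the brightness above, and carry no test.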

How the data were processed

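The deposited value per probe was a raw intensity of perfect-match probes from NimbleScan (version 2.4.67, per the file headers). RMA appears in the submitters' processing notes, yet 0 values of the deposited value table differed from the raw intensity. Each array had 71998 probes. The reference gene table matched 0 of the array's names, so genome positions are not given and sequences are not shown.

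Intensities were corrected with normexp (offset 50), quantile normalized and log2 transformed, and median polish gave 1 value per transcript (R 4.3.3, limma 3.58.1). The offset understates changes of dim transcripts. limma fitted 1 mean per group over all 14 arrays (7 residual and 3.56 prior degrees of freedom). All tests were 2-sided. The number of arrays limits the precision, and the median SE of a difference between 2 groups was 0.224. The fit and the permutation tests were tested on simulated data. Permutation p-values of correlations used 100000 permutations (Python 3.11.15, scipy 1.17.1).

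The members, lists and tests were chosen with earlier results of these data known. Comparisons of times within a mating type, and their difference between matings, were not in the written design. Named by rule were Adh1, Adh2, the list's members, and, for each of Adh1 and Adh2, the 2 GI numbers and 2 symbols with the highest r. Alternatives covered background correction, scaling, probe summary, the deposited table, eBayes settings, groups fitted, blocks, a filter on dim transcripts, single arrays and single probes. One gene looked up by name is not reported here.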

Additional observations from a re-analysis of the deposited data

How the results depend on the processing

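The Xdh call at 6 h against 15 min was lost in 8 alternatives, with values from -1.68 to -0.97. The 33 results on Adh1 and Adh2 were recomputed under 989 alternative values, of which 948 kept their direction and side of the threshold, 40 turned sign, and 1 newly passed: Adh1 at 6 h against 15 min was -0.71 (limma adjusted p = 0.0489) without the probe at position 475. Several alternatives leave an estimate as it was by construction, such as the deposited table or leaving out an array of another group. The number of values that kept their direction is therefore not a measure of how firm they are. No value that turned sign passed the threshold, and the cause of the turns was not tested. With median scaling, which moves the median of all transcripts by up to 0.162, the differences from virgin turned to 0.099 and 0.15 (Adh1 and Adh2, conspecific 2 h), 0.23 (Adh1, heterospecific 15 min), 0.20 and 0.52 (Adh1 and Adh2, heterospecific 2 h) and 0.11 (Adh1, all mated). Those between matings turned to 0.096 (Adh1, 2 h), 0.017 and 0.52 (Adh2, 15 min and 6 h) and 0.30 (Adh2, 3 times). With the header day as a block, Adh1 turned to 0.13 and 0.012 (heterospecific 15 min and 2 h against virgin), 0.12 (between matings at 2 h) and 0.015 (all mated). In that setting Adh2 turned to -0.065 (between matings at 2 h) and -0.036 (6 h against 15 min). Adh1 at heterospecific 15 min against virgin was 0.11 and 0.067 without the probe at 475 or 536, 0.025 without the 4 dim arrays, 0.020 with the slope as a covariate and 0.27 on day 2 alone. Adh1 between matings at 2 h was 0.13 without the 4 dim arrays. Adh2 at 6 h against 15 min was -0.0055 with the mean of the probes, -0.10 and -0.14 without the probe at 163 or 185, and -0.030 without the dim arrays. Adh2 between matings was -0.032 and -0.13 at 2 h without the probe at 163 or 185, and 0.031 over the 3 times without that at 479. Leaving out 1 array at a time gave sign turns in 7 results, with ranges for Adh1 of -0.40 to 0.19 (conspecific 2 h against virgin), -0.28 to 0.27 (heterospecific 15 min against virgin) and -0.45 to 0.13 (between matings, 2 h). For Adh2 they were -0.13 to 0.16 and -0.17 to 0.044 (between matings, 2 h and 6 h), -0.0077 to 0.11 (all mated against virgin) and -0.052 to 0.056 (6 h against 15 min). Replicate numbers did not pair the samples: the deviations of same-numbered arrays had r of -0.63 to 0.51 over 21 pairs of groups, 8 of them over 0.1. With the replicate number as a block, Adh1 at 6 h against 15 min stayed at -0.59 (adjusted p = 0.119), and no call of Adh1, Adh2 or Xdh changed. Both genes were above background on all 14 arrays, and the part of brightness in the precision was not tested.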
